A study of Xenopus laevis with 4 samples.

Results

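Glycolysis was followed in hindlimb stumps of the frog Xenopus laevis through 10 listed enzyme genes, hk1, gpi, pfkl, aldoa, gapdh, pgk1, eno1, pkm, ldha and ldhb. Probesets of an Affymetrix GeneChip were taken as members where the gene symbol, after removal of the ending for the L or S copy, was one of these names. The rule found 9 of the 10 genes, of 6485 named genes in the whole series, as 14 probesets of the 15491 tested. No probeset had the symbol pfkl, so this phosphofructokinase was not analysed here. A single further probeset listed both aldoa copies and was left out because it names several genes.

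The N1 pseudoblastema, the stump tissue of transgenic tadpoles in which limb regeneration is blocked, was compared with the blastema of wild type (WT) siblings, which regenerate. N1 is a line from a single insertion that carries the X. laevis Noggin coding sequence under the heat-inducible Hsp70 promoter, linked to green fluorescent protein (GFP) under a lens promoter. Noggin is a secreted inhibitor of bone morphogenetic protein (BMP) signalling, so the comparison asked which transcripts differ between tissue that regenerates and tissue in which BMP signalling was blocked. Tadpoles of both genotypes were at stage 52, were given the same heat shocks (34 °C for 30 min) before amputation and on the following days, lost the foot-forming part of both hindlimbs at the future ankle, and gave tissue 3 days later. Each of the 4 arrays, 2 for N1 and 2 for WT, held RNA from a separate pool of 20 pieces of stump tissue. In such mixed tissue, fewer cells of a type and less RNA per cell cannot be told apart.

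Glycolysis breaks glucose down to pyruvate in the cytosol with a small gain of ATP, and lactate dehydrogenase then turns pyruvate into lactate when it is not passed to mitochondria. Cells that divide fast, muscle and tissue short of oxygen are known for a high flux through the pathway, and mature red blood cells of mammals have no other source of ATP. X. laevis has a duplicated genome, so that most of these genes exist as a pair of closely related copies called L and S. Of the 9 genes measured, 5 were read by a probeset for each copy (aldoa, eno1, pkm, ldha and ldhb) and 4 by a single probeset.

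Values are MAS5 signals, a brightness on a linear scale that the authors had scaled to the same mean on every array. Array medians lay between 157 and 175. Signals of 10 of the 14 probesets were among the brightest 25% on the array and 1, ldha.L, was among the dimmest 25%, where replicates of a group typically differed by 1.04 (N1) and 0.91 (WT) on the log2 scale, against 0.29 (N1) and 0.15 (WT) in the brightest 25%. The GFP control probeset read 123 and 108 in N1 and 16.1 and 29.4 in WT (log2 difference 2.41, adjusted p = 0.155 in limma with control probesets in the fit), with both N1 arrays above both WT arrays. The Noggin probeset nog.L read 75.6 and 52.2 in N1 and 91.8 and 95.5 in WT, but the part of the transcript it reads is not known here, so it is no check of the transgene. N1 replicate 1 stood apart in many muscle transcripts: a skeletal muscle actin control probeset read 2052 there, against 392 in N1 replicate 2 and 276 and 287 in WT. Most muscle marker probesets, many of them dim, were also highest on N1 replicate 1, against 37.6% of all probesets. The brightest muscle marker probesets did not share this order. In N1 replicates 1 and 2, ckm.L read 1384 and 1671 and atp2a1.S read 975 and 1356.

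No glycolytic probeset passed limma's test after Benjamini-Hochberg adjustment over all probesets, in either direction. At several steps, though, the arrays of the groups did not overlap. In the middle of the pathway gpi, both copies of aldoa, pgk1 and both copies of eno1 were higher on both N1 arrays than on either WT array, by 1.12 to 1.37 times, although gpi.S and aldoa.L overlapped once each array was centred on its median. Between them gapdh.L was lower on both N1 arrays. Such separation in favour of N1 was found for 24.2% of all probesets and in favour of WT for 17.9%. At the end of the pathway, pkm.S was lower on both N1 arrays, with WT at 1.46 times the N1 mean. The forms of lactate dehydrogenase overlapped between the groups except for ldhb.L, which was higher in N1.

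**Figure D1:**
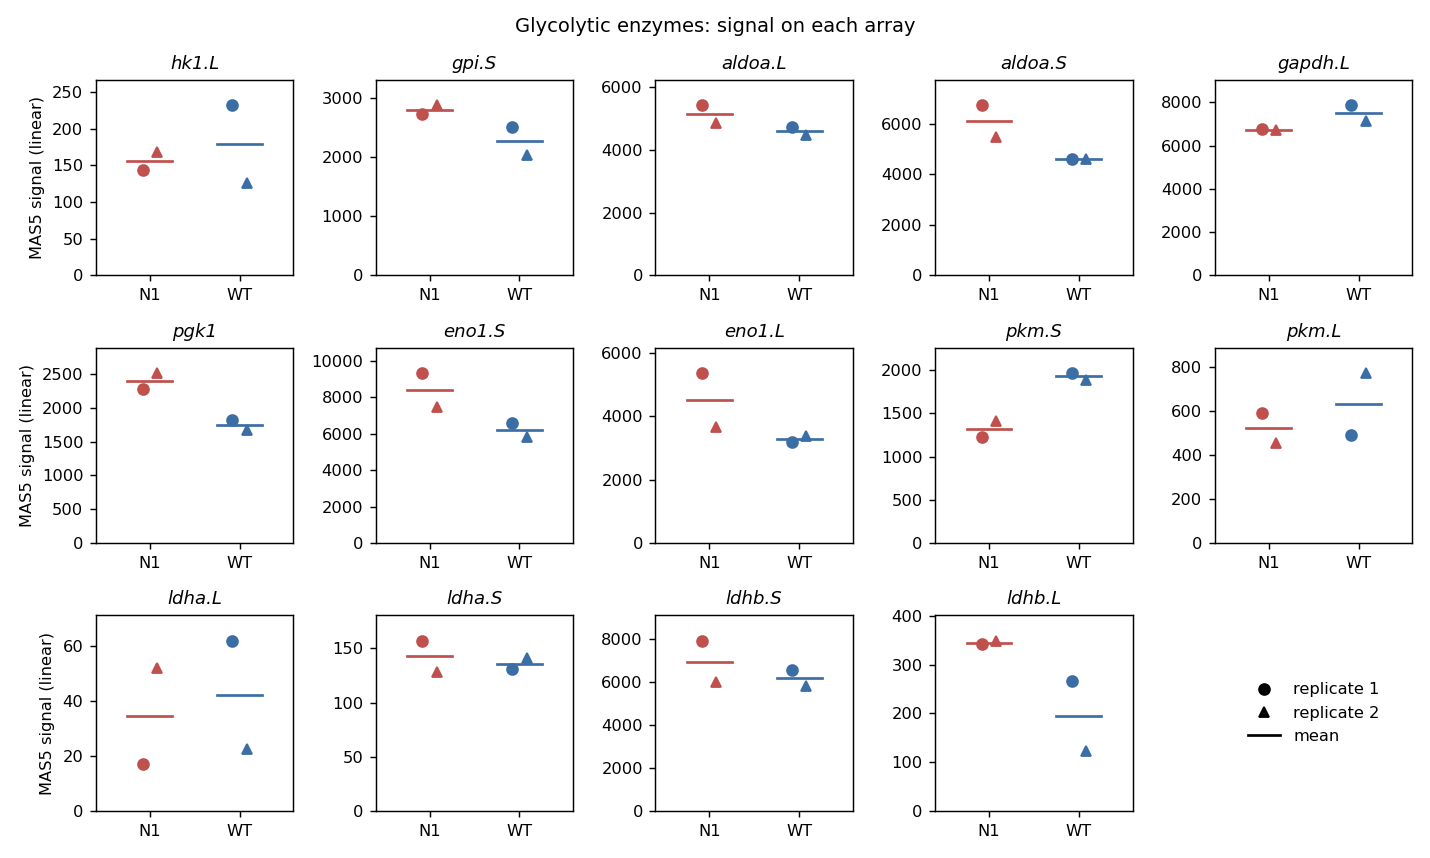
MAS5 signal (linear, each axis starting at 0) of the 14 glycolytic probesets on each array, N1 pseudoblastemas on the left and WT blastemas on the right of each panel, with circles for replicate 1, triangles for replicate 2 and a line for the mean. The groups do not overlap in 9 panels, with N1 above WT in 7 of them and WT above N1 in gapdh.L and pkm.S.

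After adjustment, at a threshold of 0.05, calls in favour of N1 numbered 0 of the 14 probesets, against 0.11% of all probesets, and calls in favour of WT 0, against 0.0129%. At an unadjusted p under 0.05, 3 were higher in N1 (pgk1, eno1.S and ldhb.L), against 6.82% of all probesets, and 1 was lower (pkm.S), against 4.29%. These counts were not stable: with each array centred on its median they were 0 and 1 (762 and 1028 of all 15491 probesets), and in limma without a variance trend 0 and 0 (956 and 415). Both N1 arrays lay above both WT arrays in 7 of the 14, against 24.2% of all probesets, and both lay below in 2, against 17.9%. Those 7 stand for 5 genes, since aldoa and eno1 count through both copies. A ratio of mean signals over 1.5 was reached by 1 probeset in favour of N1 (ldhb.L), against 19.0% of all probesets, and by 0 in favour of WT, against 9.1%. Among the 7746 brighter probesets, which hold 11 of the 14, ldhb.L was again the only enzyme over 1.5-fold in favour of N1, against 8.29% of those probesets, and 642 of the 2939 such probesets overall were in that brighter set. With 2 arrays a group an exact two-sided permutation test of a single probeset cannot go below p = 0.333.

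The median log2 difference, N1 minus WT, was 0.16 over the 14 probesets, with 9 above 0 and 5 below, and their values ran from -0.55 (pkm.S) to 0.93 (ldhb.L). Over all probesets the median was 0.07, and 55.9% were above 0. Among the brighter 7746 probesets it was -0.0040, and for the 11 enzyme probesets there 0.31. Taking only the brightest probeset of each gene, 6 of 9 genes were above 0 and the median was 0.15. When each array was centred on its own median, all differences moved by -0.11, so that the median of the 14 was 0.046, and with this centring 5 of the 14 instead of 7 had both N1 arrays above both WT arrays, against 18.6% of all probesets, since gpi.S and aldoa.L then overlapped. No direction given here for gpi, aldoa, pgk1, eno1, pkm.S or ldhb.L turned under that scaling or under quantile normalisation.

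**Figure D2:**
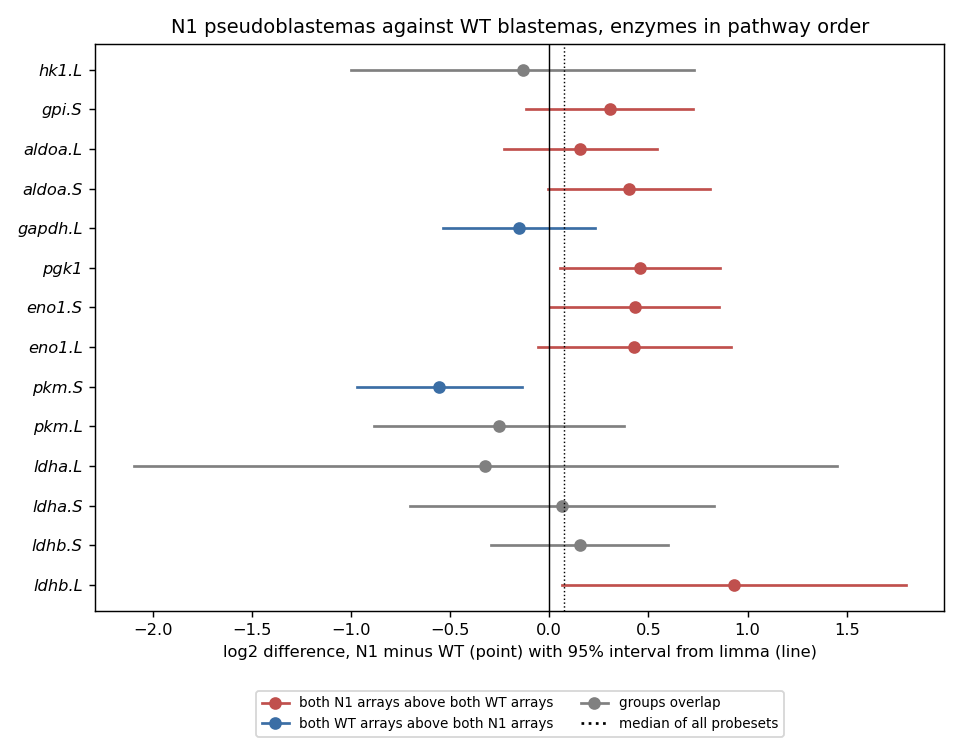
Log2 difference, N1 minus WT, of each glycolytic probeset in pathway order (points) with its 95% interval from limma (lines), in red where both N1 arrays were above both WT arrays, in blue where both were below and in grey where the groups overlapped. The intervals of pgk1, eno1.S, pkm.S and ldhb.L leave out 0 before any adjustment, and the dotted line at 0.07 is the median of all probesets.

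Entry of glucose into the pathway was read by hk1.L, hexokinase, which adds the first phosphate and keeps the sugar in the cell. Its signal was 144 and 168 in N1 and 232 and 125 in WT. WT replicates spanned both N1 values, so the groups overlapped, and the log2 difference of -0.13 had an adjusted p of 0.929 in limma. Its 95% interval runs from 0.50 to 1.66 times the WT level, which is too wide to say that hexokinase was the same in both tissues.

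The next step, the turning of glucose phosphate into fructose phosphate by glucose phosphate isomerase, was read by gpi.S. The isomerase gave 2726 and 2879 in N1 pseudoblastemas and 2518 and 2041 in WT blastemas, that is 2803 ± 108 and 2279 ± 337 (SD, n = 2 each). Neither WT array reached the N1 arrays, and the ratio of means was 1.23. The gap between the WT replicates was larger than that between the nearest arrays of the groups, and the log2 difference of 0.31 ± 0.18 (SE) had an adjusted p of 0.590 in limma.

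Phosphofructokinase, which commits the sugar to glycolysis, was read only by paralogues of the listed gene, named here after their values were seen because pfkl has no probeset. The muscle form pfkm.S read 1011 and 884 in N1 and 1100 and 1239 in WT, with both N1 arrays below both WT arrays (log2 difference -0.30, limma adjusted p = 0.613). The brightest pfkp.S probeset read 874 and 1128 in N1 and 1297 and 1036 in WT, where the groups overlapped.

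Aldolase A cuts the sugar bisphosphate into a pair of triose phosphates, and both of its copies were bright. The S copy read 6731 and 5482 in N1 and 4602 and 4587 in WT, with means of 6107 ± 883 and 4594 ± 11.1 (SD, n = 2 each). Again neither WT array reached N1, and the log2 difference of 0.40 had a 95% interval from -0.01 to 0.81 (limma, unadjusted p = 0.0523, adjusted p = 0.457). The L copy read 5426 and 4849 in N1 and 4732 and 4477 in WT, also without overlap, though N1 replicate 2 was only slightly above WT replicate 1 (log2 difference 0.16, adjusted p = 0.780). Within each array, the log2 signal of aldoa.L minus that of aldoa.S was -0.31 and -0.18 in N1 and 0.04 and -0.04 in WT. This contrast of the copies was lower on both N1 arrays, by 0.25 on average, a difference between the copies that was not tested.

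Glyceraldehyde phosphate dehydrogenase, which forms the first energy-rich intermediate and is often used as a reference gene, went the other way from its neighbours on its named probeset. Signals of gapdh.L were 6749 and 6733 in N1 and 7871 and 7130 in WT, with both N1 arrays lower (log2 difference -0.15, 95% interval from -0.53 to 0.23, limma adjusted p = 0.783). The array's control probesets for the same transcript did not share that order. The probeset near its 3' end read 14005 and 9218 in N1 and 9442 and 9711 in WT (log2 difference 0.25, adjusted p = 0.723), and that in its middle read 6556 and 4341 in N1 and 4513 and 4188 in WT (0.30, adjusted p = 0.663). On both, N1 replicate 1 was the high array and the groups overlapped, so no direction can be given for gapdh.

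Phosphoglycerate kinase, the first step that returns ATP, was among the enzymes with the clearest separation of the groups. The pgk1 probeset read 2280 and 2513 in N1 and 1820 and 1668 in WT, or 2396 ± 165 and 1744 ± 107 (SD, n = 2 each). Both N1 arrays were well above both WT arrays, and the gap between the groups was larger than that between replicates of either. Its log2 difference was 0.46 ± 0.18 (SE; limma unadjusted p = 0.0306, adjusted p = 0.394). With each array left out in turn the difference ran from 0.39 to 0.53, one of the narrowest ranges among the 14.

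Enolase forms phosphoenolpyruvate, the last intermediate before pyruvate. The S copy of eno1 read 9343 and 7482 in N1 and 6588 and 5839 in WT, and the L copy read 5359 and 3652 in N1 and 3200 and 3371 in WT. N1 replicate 1 was the highest array for both copies, and N1 replicate 2 was also above both WT arrays. The log2 differences were 0.43 for each copy, with adjusted p of 0.445 (eno1.S) and 0.514 (eno1.L) in limma, and the log2 contrast of the L with the S copy had means less than 0.01 apart, with a spread within the groups of 0.16 in N1 and 0.18 in WT (SD, n = 2 each).

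How far enolase was higher in N1 rested on N1 replicate 1, the pool with the high reading of the muscle actin control probeset. Whether these are linked was not tested. Without it, the log2 difference was 0.27 for eno1.S and 0.15 for eno1.L. Without N1 replicate 2 it was 0.59 for eno1.S and 0.71 for eno1.L, and eno1.L then passed the adjusted threshold (limma, adjusted p = 0.0441). That fit rested on 1 N1 array, assumed to vary as the WT arrays did, and it also called 156 probesets higher and 178 lower in N1, against 17 and 2 with all 4 arrays.

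Pyruvate kinase yields pyruvate and the second ATP, and its M form, pkm, is the one known from embryonic and dividing cells as well as muscle. The S copy had the smallest p of the 14 probesets. It read 1221 and 1412 in N1 pseudoblastemas and 1967 and 1891 in WT blastemas, or 1317 ± 135 and 1929 ± 53.6 (SD, n = 2 each). Both N1 arrays were far below both WT arrays, at a log2 difference of -0.55 ± 0.18 (SE; 95% interval from -0.97 to -0.14, limma unadjusted p = 0.0152, adjusted p = 0.311). With each array left out the difference ran from -0.66 to -0.45. The dimmer L copy read 590 and 455 in N1 and 493 and 773 in WT and overlapped (log2 difference -0.25, adjusted p = 0.782), and it was at 0.07 without WT replicate 2.

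Lactate dehydrogenase is built from A and B subunits, of which the A form is typical of muscle and of tissue making lactate and the B form of heart and of tissue using it. The B subunit's S copy, ldhb.S, read 7929 and 5995 in N1 and 6587 and 5826 in WT. N1 replicate 2 lay between the WT arrays, and the log2 difference of 0.15 had a 95% interval from -0.29 to 0.60 (limma, adjusted p = 0.816). The L copy, ldhb.L, read 342 and 349 in N1 and 267 and 123 in WT, or 345 ± 5.004 and 195 ± 102 (SD, n = 2 each). Here the N1 arrays were nearly equal and above both WT arrays, but the spread lay in WT: the log2 difference of 0.93 (unadjusted p = 0.0379, adjusted p = 0.419) was 1.49 without WT replicate 1 and 0.37 without WT replicate 2.

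The A subunit was read dimly. Signals of ldha.S were 157 and 128 in N1 and 131 and 141 in WT, and those of ldha.L were 17.0 and 52.1 in N1 and 61.9 and 22.4 in WT. Both overlapped, and the spread within a group was as large as any gap between the groups. The log2 differences were 0.06 for ldha.S, which turned to -0.046 when arrays were centred on their medians and -0.053 when they were quantile normalised, and -0.32 for ldha.L (limma, adjusted p = 0.964 and 0.914). Within arrays, log2 ldhb.S minus log2 ldha.S was 5.66 and 5.55 in N1 and 5.65 and 5.37 in WT, a change of 0.09 that lay within the replicate spread, so no shift between the subunits was measurable.

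**Figure D3:**
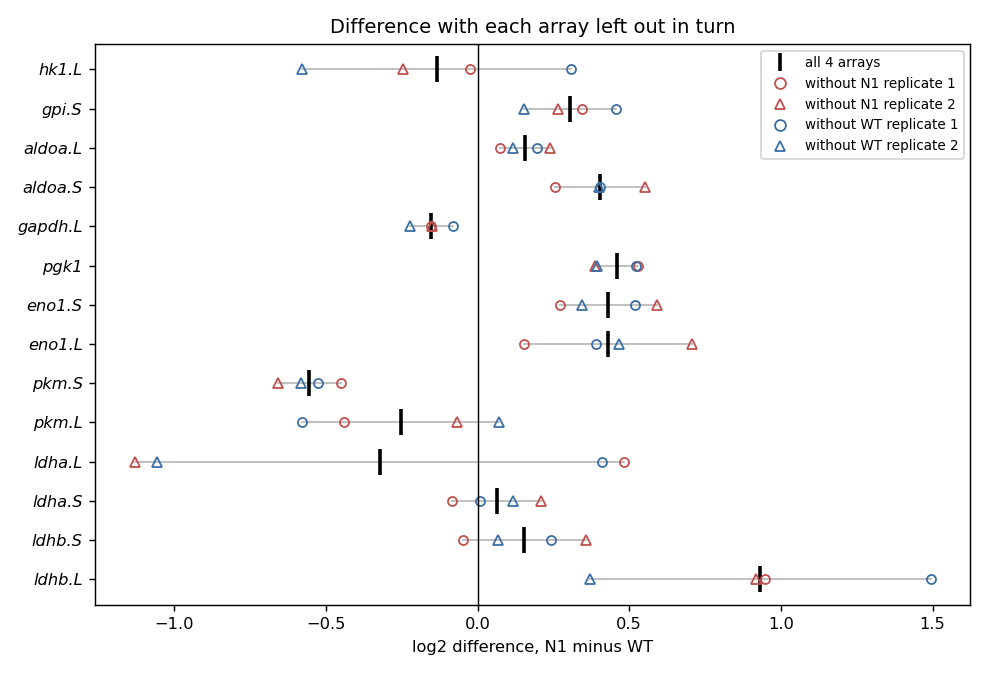
Log2 difference, N1 minus WT, of each glycolytic probeset with all 4 arrays (black bars) and with each array left out in turn (red symbols for an N1 array, blue for a WT array; circles for replicate 1, triangles for replicate 2). The values of gpi.S, both aldoa copies, gapdh.L, pgk1, both eno1 copies, pkm.S and ldhb.L stay on their side of 0, while hk1.L, pkm.L, both ldha copies and ldhb.S cross it.

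Among the arrays, N1 replicate 1 was the highest for 6 of the 14 probesets and WT replicate 2 the lowest for 8. N1 replicate 1 was also the highest for 37.6% of all probesets, and WT replicate 2 the lowest for 4494 of all 15491. With N1 replicate 1 left out, 7 of the 14 had the remaining N1 array above both WT arrays, against 36.6% of all probesets, and with N1 replicate 2 left out 9 did, against 47.3%. Differences that did not change sign when an array was left out belonged to 9 of the 14 probesets, the same 9 whose groups did not overlap. A probeset without overlap cannot change sign in this way.

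Cell types of the stump differ in how much they use glycolysis, and their markers are given here beside the enzymes. Skeletal muscle probesets summed to 5347 and 4040 in N1 and 3616 and 3369 in WT, with a median log2 difference of 0.69 over 37 probesets, of which 24 were among the dimmest 25%. Its brightest probeset, ckm.L for creatine kinase, read 1384 and 1671 in N1 and 1342 and 1308 in WT. Both N1 arrays were thus above both WT arrays for ckm.L, though N1 replicate 1 was only slightly above WT replicate 1. The next brightest, atp2a1.S for a calcium pump, read 975 and 1356 in N1 and 1252 and 1080 in WT and overlapped. The muscle enolase eno3.L and the muscle mutase pgam2.L, named here after their values were seen, were at or below 16.3 on every array. None of the 37 muscle probesets passed the adjusted threshold in limma. At an unadjusted p under 0.05, 7 were higher in N1, against 6.82% of all probesets, and 0 in WT, against 4.29%. Both N1 arrays were above both WT arrays in 14 and below in 0, against 24.2% and 17.9% of all probesets. By log2 difference 30 were above 0 and 7 below. The largest difference was in tnnc2.L (4.08), named here after its values were seen. It read 141 and 36.0 in N1 and 5.92 and 2.99 in WT. Dimmer probesets of ckm.L and atp2a1.S overlapped between the groups.

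Red blood cell probesets ranged from globins bright in both groups to 3 probesets among the dimmest 25%. Together the red blood cell probesets summed to 76331 and 97806 in N1 and 38829 and 31428 in WT. Their median log2 difference was 1.40 over 12 probesets. In limma 2 of them passed the adjusted threshold in favour of N1, against 0.11% of all probesets. At an unadjusted p under 0.05, 7 were higher in N1, against 6.82% of all probesets, and 0 in WT, against 4.29%. The globins hbd.S (22204 and 27124 in N1, 11396 and 9018 in WT) and hba3.L (18609 and 21895 in N1, 11854 and 10019 in WT) were the brightest of them. On these globins N1 replicate 2 was the higher N1 array. Among the 14 enzyme probesets N1 replicate 2 was the higher N1 array for 6 (hk1.L, gpi.S, pgk1, pkm.S, ldha.L and ldhb.L). N1 replicate 1 was the higher for 8, among them both copies of aldoa and of eno1, and for 57.1% of all probesets. Whether red blood cells contributed to any enzyme signal was not tested.

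Epidermal probesets summed to 38293 and 42512 in N1 and 33457 and 31571 in WT, with a median log2 difference of 0.38 over 23 probesets. In limma 1 of these passed in favour of N1, against 0.11% of all probesets. It was krt18.1.L, at 414 and 457 in N1 and 48.4 and 49.1 in WT (adjusted p = 0.0258), while the dim krt18.1.S overlapped. Before adjustment 8 had a limma p under 0.05 in favour of N1 and 1 of WT, against 6.82% and 4.29% of all probesets. Both N1 arrays were above both WT arrays in 10 and below in 2, against 24.2% and 17.9%. The brightest keratins, krt12.5.S and krt62.L, overlapped between the groups. No probeset of the remaining marker lists passed. An unadjusted p under 0.05 was reached in limma by 3 pigment cell, 1 leucocyte and 1 limb mesenchyme probeset in favour of N1. In favour of WT it was reached by 3 cartilage and bone and 1 limb mesenchyme probeset. Shares over all probesets were 6.82% for N1 and 4.29% for WT. Pigment cell probesets had a median of 1.58 over 8, with 7 above 0 and 1 below. The brightest of them, gpr143.L (-0.07) and rab27a.L (0.25), overlapped between the groups. Both N1 arrays were above both WT arrays in 5 of the 8 and below in 0, against 24.2% and 17.9% of all probesets. Among these were pmel-a, pmel.S and tyrp1.L, named here after their values were seen. Leucocyte probesets had a median of 0.42 over 10, with 8 above 0 and 2 below. Both N1 arrays were above both WT arrays in 3 and below in 1, against 24.2% and 17.9% of all probesets. The brightest leucocyte probesets were those for the copies of a single gene, cd74.S at -0.19 and cd74.L at 0.0044. Limb mesenchyme probesets had a median of 0.14 over 22, with 14 above 0 and 8 below. Both N1 arrays were above both WT arrays in 2 and below in 3, against 24.2% and 17.9% of all probesets. The brightest, hoxa11.S (310 and 684 in N1, 709 and 964 in WT; log2 difference -0.84) and msx1.L (382 and 397 in N1, 570 and 459 in WT; -0.39), were lower on both N1 arrays. Other probesets of hoxa11.S ran from -0.61 to 0.07, and the dim msx1.S overlapped. Higher on both N1 arrays was hoxd13.S (270 and 209 in N1, 106 and 141 in WT; 0.96), named here after its values were seen. Cartilage and bone probesets had a median of -0.19 over 7, and its brightest members col2a1.S (466 and 690 in N1, 1124 and 790 in WT) and sox9.S (389 and 436 in N1, 804 and 610 in WT) were lower on both N1 arrays. The part of any of these cell types in the enzyme signals was not tested. Ratios of the 3' to the 5' control probeset of gapdh, a measure of how complete the labelled RNA was, were 38.6 and 34.995 in N1 and 41.1 and 27.6 in WT, so the groups overlapped. Those of beta actin were 10.6 and 6.73 in N1 and 5.04 and 11.4 in WT and overlapped as well. On every array the 3' probeset of both transcripts was thus far brighter than the 5' probeset, a limit on all signals given here.

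The remaining enzymes of glycolysis were read by 15 probesets of 9 genes, paralogues of the listed genes and the steps in between. Their median log2 difference was -0.02, with 7 above 0 and 8 below, and 0 passed limma's adjusted threshold (1 in favour of N1 and 0 of WT at an unadjusted p under 0.05). Over all probesets the unadjusted shares were 6.82% in favour of N1 and 4.29% of WT, for this list and those below. The S copy of pgam1, the mutase between pgk1 and eno1, read 963 and 1532 in N1 and 1553 and 1818 in WT (log2 difference -0.47, limma adjusted p = 0.534), with both N1 arrays lower, while its L copy was at 0.18 and overlapped. Hexokinase hk2.L had the smallest p, with 45.4 and 16.4 in N1 and 3.51 and 6.24 in WT (2.54, adjusted p = 0.369), all at signals where replicates scatter widely. The 4 probesets for tpi1.S, triose phosphate isomerase, overlapped between the groups and had differences from -0.30 to 0.03.

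Carriers of glucose and lactate and the enzymes that set phosphofructokinase activity gave a median of 0.30 over 19 probesets of 11 genes, with 15 above 0. In limma 0 passed the adjusted threshold. Before adjustment 3 did in favour of N1 and 0 of WT, against 6.82% and 4.29% of all probesets. Both N1 arrays were above both WT arrays in 9 and below in 3, against 24.2% and 17.9% of all probesets. Most of the 19 were below the median level of all probesets, and 4 were among the dimmest 25%. The lactate exporter slc16a3.L read 83.4 and 71.0 in N1 and 44.3 and 20.0 in WT (log2 difference 1.37, limma adjusted p = 0.424), while its S copy, at or below 19.7 on every array, went the other way (-1.74). A probeset of pfkfb3.S, an activator of phosphofructokinase, read 117 and 105 in N1 and 52.1 and 60.7 in WT (0.98, adjusted p = 0.429), and another with the same symbol went the other way (-0.96). Disagreement of that kind leaves no direction for the gene.

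Downstream of pyruvate most probesets were lower in N1 by their means. The pyruvate carrier, the pyruvate dehydrogenase complex and its regulators gave a median of -0.15 over 20 probesets of 10 genes, with 15 below 0. Both N1 arrays were below both WT arrays in 6 and above in 1, against 17.9% and 24.2% of all probesets, and 0 passed limma's adjusted threshold (1 in favour of N1 and 2 of WT before adjustment). The 1 in favour of N1 was pdk4.S, a kinase of the complex, named here after its values were seen. It read 265 and 239 in N1 and 140 and 168 in WT, while pdk4.L overlapped (-0.15). These counts thus join subunits of the complex with its regulators. The dehydrogenase subunit dld.S read 411 and 359 in N1 and 747 and 827 in WT, a clear gap between the groups (log2 difference -1.03, limma, adjusted p = 0.140), although a dimmer probeset of the same copy was at -0.03. The subunit pdha1.S read 582 and 701 in N1 and 826 and 1102 in WT (-0.58, adjusted p = 0.407).

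Enzymes of the citric acid cycle, which oxidises the acetyl group made from pyruvate in mitochondria, lay mostly on the side of WT. Of 24 probesets of 15 genes, 19 were below 0 and the median was -0.21. In 13 both N1 arrays were below both WT arrays and in 0 both were above, against 17.9% and 24.2% of all probesets, but 0 passed limma's adjusted threshold (0 in favour of N1 and 3 of WT before adjustment). Citrate synthase, the entry step, accounts for 3 of the 13, and its probesets with the smallest p read 811 and 1476 in N1 and 1867 and 1850 in WT (cs.L, log2 difference -0.76, limma adjusted p = 0.359) and 1696 and 1327 in N1 and 2037 and 2304 in WT (cs.L, -0.53, adjusted p = 0.375). Probesets of 1 gene, such as the 4 of mdh1, are not independent. This mdh1 is the cytosolic malate dehydrogenase rather than the form of the mitochondrial cycle, and some of the 13 are its probesets. With each array left out in turn the median of the list ran from -0.24 to -0.18.

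**Figure D4:**
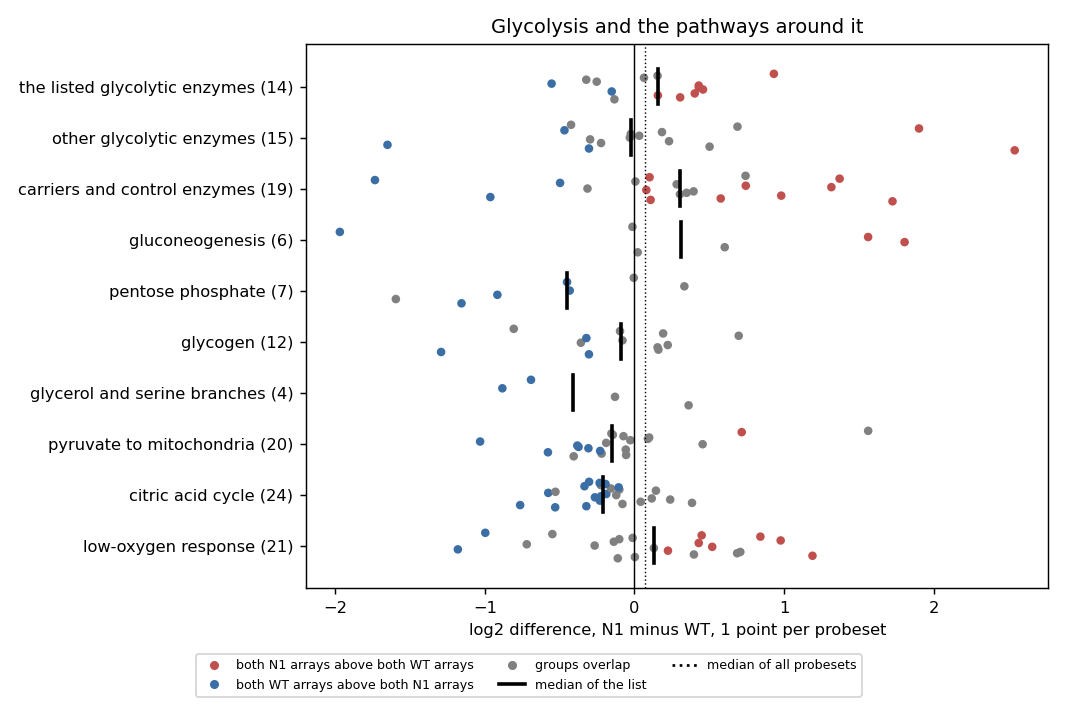
Log2 difference, N1 minus WT, of each probeset of the glycolytic enzymes and of 9 lists around them (number of probesets in brackets), in red where both N1 arrays were above both WT arrays, in blue where both were below and in grey where the groups overlapped, with a bar at each list's median and a dotted line at the median of all probesets (0.07). The listed enzymes have 7 red and 2 blue points and the citric acid cycle 0 red and 13 blue.

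Side branches of glycolysis were read by few probesets, and 0 of them passed limma's adjusted threshold. Before adjustment 1 of the pentose phosphate probesets and 2 of the glycerol and serine probesets had a limma p under 0.05, all lower in N1, against 4.29% of all probesets. The pentose phosphate pathway, which makes ribose and reducing power from glucose, had 7 probesets of 6 genes with a median of -0.45, led by rpia.L (ribose phosphate isomerase; 305 and 308 in N1, 546 and 612 in WT; log2 difference -0.92, limma adjusted p = 0.197) and tktl2.L, a transketolase (2556 and 1684 in N1, 2794 and 2879 in WT; -0.45, adjusted p = 0.513). Branches to glycerol, serine and glycine had 4 probesets with a median of -0.41, and both serine hydroxymethyltransferases, shmt1.L (322 and 352 in N1, 576 and 670 in WT; -0.88, adjusted p = 0.206) and shmt2.L (1777 and 1021 in N1, 2251 and 2105 in WT; -0.69, adjusted p = 0.383), were lower on both N1 arrays. Both N1 arrays were below both WT arrays in 4 of the 7 pentose phosphate and 2 of the 4 glycerol and serine probesets, against 17.9% of all probesets. In 0 of either list were both above, the order of gpi, aldoa, pgk1 and eno1, against 24.2%. The rest overlapped, among them tkt.L (0.33), taldo1.L (-0.0048) and the glycerol enzymes gpd1.L (0.36) and gpd1l.L (-0.13), named here after their values were seen.

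Glycogen enzymes had a median of -0.09 over 12 probesets of 6 genes, with pgm1.L (1257 and 1006 in N1, 1370 and 1408 in WT; log2 difference -0.30, limma adjusted p = 0.615) and ugp2.L (13.2 and 30.3 in N1, 47.9 and 50.3 in WT; -1.29, adjusted p = 0.517) at the smallest p. Enzymes that run the one-way steps backwards to make glucose had a median of 0.31 over 6 probesets of 5 genes, with 3 probesets among the dimmest 25%. The brightest, fbp1.L, named here after its values were seen, overlapped between the groups. It read 2496 and 2704 in N1 and 2997 and 2186 in WT (0.02). The cytosolic and mitochondrial forms of phosphoenolpyruvate carboxykinase lay on opposite sides. The cytosolic pck1.L read 173 and 91.6 in N1 and 25.8 and 50.1 in WT (1.81, adjusted p = 0.268), and the mitochondrial pck2.L read 7.70 and 14.6 in N1 and 57.9 and 29.9 in WT (-1.97, adjusted p = 0.383). All of these signals were dim except pgm1.L and fbp1.L, and 0 probesets of either list passed limma's adjusted threshold (before adjustment, 0 of glycogen, and of glucose synthesis 1 in favour of N1 and 1 of WT).

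Genes outside glycolysis tied to the response to low oxygen through the factor HIF in vertebrates were read by 21 probesets of 12 genes. They include genes for subunits of HIF itself (hif1a, epas1 and arnt) as well as genes known to respond through it. The median of the 21 was 0.13, with 12 above 0 and 9 below. In 7 both N1 arrays were above both WT arrays and in 2 below, against 24.2% and 17.9% of all probesets, and 0 passed limma's adjusted threshold (1 in favour of N1 and 1 of WT before adjustment). The mitochondrial protein higd1a.L read 1493 and 1388 in N1 and 1142 and 973 in WT (log2 difference 0.45, limma adjusted p = 0.434), and plod1.S, which modifies collagen, read 70.9 and 117 in N1 and 192 and 171 in WT (-0.998, adjusted p = 0.389). The brighter probeset of hif1a.L, named here after its values were seen, read 2582 and 2824 in N1 and 3043 and 2798 in WT and overlapped. The median of all probesets was 0.07.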

How the data were processed

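RNA from 2 pools of N1 pseudoblastemas and 2 pools of WT blastemas was amplified by the Affymetrix 2-cycle kit. The authors deposited 1 table of MAS5 signal intensities made in GCOS (versions not given in the sources used here), on a linear scale; trimmed means near 500.1 on each array show the scaling. Detection calls were not used here, and arrays give no read depth: their number limits the precision. Gene symbols came from the platform annotation (9304 probesets with 1 symbol, 195 with several, 5992 with none); all 14 glycolytic probesets had their gene in RefSeq assembly v10.1.

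Nothing was added or renormalised before log2. All 15491 non-control probesets were fitted in R 4.3.3 with limma 3.58.1 (lmFit, then eBayes with its variance trend), N1 minus WT, with Benjamini-Hochberg adjustment over all and a threshold of 0.05. Ratios are of mean linear signals. Tested on simulated data of this comparison over 15491 probesets, the fit found 68.6% of 2-fold and 99.5% of 4-fold differences. These rates describe the simulated data only. They are not a detection rate for dim probesets or for smaller differences on the real arrays.

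Named besides the glycolytic probesets were, of each pathway list, the 2 probesets with the smallest p and, of each marker list, the 2 brightest; exceptions are stated. The members and lists were chosen with earlier results of these data known. Alternatives were no variance trend, quantile normalisation, median centring, 16 or 64 added before log2, filters at the 25th percentile and the median, a replicate block, and each array left out.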

Additional observations from a re-analysis of the deposited data

How the results depend on the processing

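Of the 14 glycolytic probesets, all kept direction and side of the adjusted threshold without a variance trend, with 16 or 64 added and with the replicate block, as did those passing the filters. Median centring and quantile normalisation turned only ldha.S, to -0.046 and -0.053. With an array left out, hk1.L ran from -0.58 to 0.31, pkm.L from -0.58 to 0.072, ldha.L from -1.13 to 0.48, ldha.S from -0.083 to 0.21 and ldhb.S from -0.047 to 0.36; only eno1.L crossed the threshold. The smallest adjusted p of the 14 ran from 0.0441 (without N1 replicate 2) to 0.996 (without WT replicate 2). Counts with an array left out ran, for N1, from 0 to 1 (adjusted p), 0 to 5 (unadjusted) and 0 to 3 (over 1.5-fold), and for WT from 0 to 1 (unadjusted), 3 to 4 (not overlapping) and 0 to 2 (over 1.5-fold). The counts by p came from fits with a single array in a group, and calls over all probesets changed between these fits as well. Read alone, the counts by p thus say nothing particular to the glycolytic probesets. Of all probesets, 28.7% to 35.7% were not overlapping in favour of WT with an array left out. Over 1.5-fold were 16.1% to 24.3% of all probesets for N1 and 9.7% to 15.0% for WT. The unadjusted count was 0 for N1 and 0 for WT without a variance trend, and 0 for N1 and 1 for WT with median centring. Median centring also put 1 probeset over 1.5-fold in WT. The median of the 14 ran from 0.11 to 0.35 with an array left out, and was 0.046 with median centring and 0.31 over the 11 passing the filter at the median. List medians moved for carriers and control enzymes (0.094 quantile, 0.10 median filter, 0.10 to 0.54 left out), glucose synthesis (0.052 with 64 added, 0.021 and 0.0039 with the filters at the 25th percentile and the median, 0.13 to 0.55 left out), glycogen (-0.31 median filter, -0.43 to 0.17 left out), glycerol and serine (-0.69 median filter), pentose phosphate (-0.69 to -0.15 left out) and low oxygen (0.014 to 0.37 left out). The causes were not tested. The sample titles number the replicates but do not say whether same-numbered pools were handled together. Deviations of same-numbered arrays correlated at 0.03 over all probesets and -0.76 over the 14. With the replicate block 2 of the 14 were higher in N1 at an unadjusted p under 0.05, against 1167 of all 15491 probesets. In favour of WT 1 of the 14 was, against 760 of all. At an adjusted p 0 of the 14 were higher in N1, while calls over all probesets were 143 higher and 57 lower in N1.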
